A study of Mus musculus with 6 samples.

Results

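The genes described here encode the nuclear-encoded subunits of the mitochondrial respiratory chain and of ATP synthase, with the complex I assembly factors and the tissue-specific paralogues that carry the same gene names. They were taken by symbol (Nduf followed by a, b, c, s or v; Sdha to Sdhd; Uqcr; Cox4 to Cox8; Atp5) from array rows annotated with exactly 1 gene, without use of any measured value other than the mean level that chose between the rows of a gene. This gave 98 rows for 89 of the 22180 genes measured. The set itself was chosen with earlier results of these data known. Grouped by name alone, 42 genes were of complex I, 4 of complex II and 8 of complex III. A further 17 were of complex IV and 18 of ATP synthase (complex V). Among them were 2 pseudogenes, Uqcrh-ps1 and Atp5c1-ps. Ndufa4 and Ndufa4l2 were counted with complex I only because of their names. Another 10 rows fitting the names, among them rows for Uqcr10, Cox6c, Ndufs6, Ndufb2 and Ndufb4, named at least 1 other gene and were left out. Uqcrb, Ndufs1 and Ndufs5 also lost a row in this way but stayed among the 89 genes through another row.

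The study measured gene expression on Affymetrix whole-transcript arrays in invariant natural killer T (iNKT) cells, T cells with a nearly fixed antigen receptor that depend on the transcription factor PLZF, the product of Zbtb16. It compared wild-type (WT) mice with PLZF_ON mice, which express PLZF in a constitutively acetylated form, with 3 arrays per genotype. Replicates 1 and 2 of each genotype were named as the arrays the study analysed, and replicate 3 of each was deposited beside them. The sources used here do not give the allele behind PLZF_ON, the cells that express it, the age and sex of the mice, the organ or the way of isolating the cells. The RNA protocol names frozen tissue as its starting material, although the samples are labelled as iNKT cells. The labels do not tie the replicates to individual mice. The p-values therefore reflect the variation among these arrays alone, and part or all of it may be technical.

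The respiratory chain passes electrons from NADH through complex I, or from succinate through complex II, by way of ubiquinone to complex III, cytochrome c and complex IV. Complexes I, III and IV pump the protons that ATP synthase uses to make ATP. Most subunits are encoded in the nucleus and imported, and a small hydrophobic set is encoded by mitochondrial DNA, so each complex except complex II needs both genomes. The nuclear genes are expressed in nearly all cells and share promoter elements bound by NRF1, by the ETS-family factor GABP and by YY1.

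To show these shared elements, RefSeq promoter windows of assembly GRCm38.p6, from 250 bases before to 50 bases after the annotated start, were searched on both strands. A window was found for 72 of the 89 genes, with 77 windows in all. The NRF1 core GCGCANGC lay in 31.2% of these windows and in 13.3% of the 20520 windows of all measured genes. The ETS core CCGGAAG lay in 24.7% against 11.4%, and the YY1 core AAGATGGC in 13.0% against 3.12%. Both the NRF1 and the ETS core were found in 9.09% of the windows, against 2.46% of all. The GC box GGGCGG (45.5% against 46.6%) and the TATA box TATAAA (11.7% against 12.3%) were about as frequent as in all windows. The NRF1, ETS and YY1 cores were in none of the 4 windows of tissue-specific forms. The comparison was with all measured genes, whatever their level, and no share over genes of like level was computed. NRF1 cores can overlap their own reverse complement, and a match describes letters in a window, not a bound site.

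**Figure D1:**
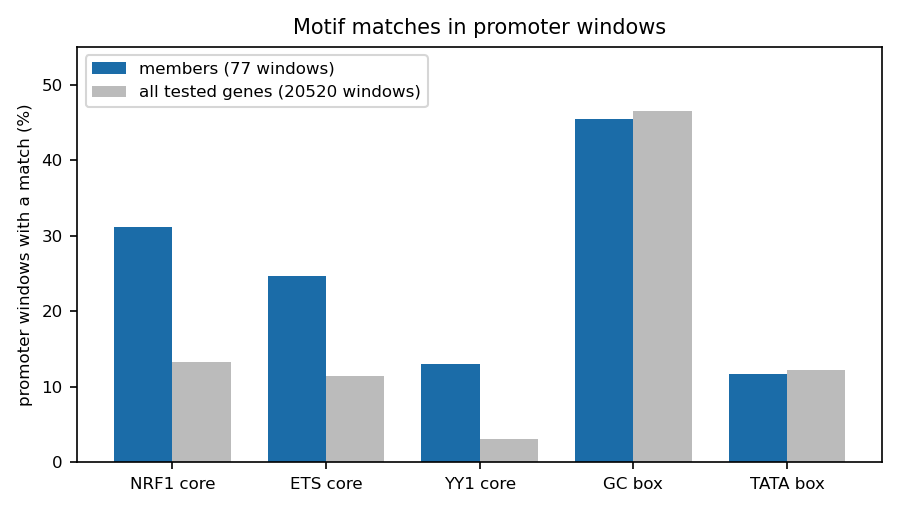
Share of 300-base RefSeq promoter windows that hold each motif on either strand, for the 77 windows of respiratory chain and ATP synthase genes (blue) and the 20520 windows of all measured genes (grey). The NRF1, ETS and YY1 bars are taller in blue (31.2%, 24.7% and 13.0%), and the GC box and TATA box bars are of like height in both colours.

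The stretches between the NRF1 and ETS matches of 4 of these promoters are printed from 5′ to 3′ on the gene's strand, with the NRF1 and ETS matches (in either orientation) in capitals. They are the stretches whose NRF1 and ETS cores both lie before the annotated start, with a single chromosome left out of the choice. On the arrays described further on, Atp5l was highest on the replicate 3 array of PLZF_ON, where Atp5h, Cox6a1 and Sdhd were at their lowest. All lie on the minus strand of GRCm38.p6, at chr9:50603874-50603943 for Sdhd, chr5:115348959-115349135 for Cox6a1, chr11:115419936-115420075 for Atp5h and chr9:44920933-44920992 for Atp5l.
Sdhd: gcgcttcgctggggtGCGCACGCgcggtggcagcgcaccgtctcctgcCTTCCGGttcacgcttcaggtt
Cox6a1: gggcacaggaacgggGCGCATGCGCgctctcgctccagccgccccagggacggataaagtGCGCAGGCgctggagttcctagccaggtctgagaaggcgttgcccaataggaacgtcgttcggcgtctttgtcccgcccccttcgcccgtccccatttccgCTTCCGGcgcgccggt
Atp5h: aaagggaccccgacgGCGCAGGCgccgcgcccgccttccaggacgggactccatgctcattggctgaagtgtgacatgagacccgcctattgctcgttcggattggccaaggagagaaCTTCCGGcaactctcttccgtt
Atp5l: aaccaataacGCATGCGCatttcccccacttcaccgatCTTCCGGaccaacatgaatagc
All 4 were picked from the promoters that hold both cores, so nothing about the arrays follows from that.

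All values are deposited log2 levels, in which a difference of 1 is a doubling. The files carry no detection call, so a background limit was set at 5.21, the 95th percentile of the mean levels of 1394 olfactory and vomeronasal receptor genes. The mean over the 6 arrays reached this limit for 81 of the 89 genes, including the 5 defining genes Ndufs1, Sdha, Uqcrc1, Cox5a and Atp5b on every array. T cell markers (Cd3e, Cd3d, Cd3g, Cd5 and Zbtb16) were between 9.45 and 11.49 on all 6 arrays, while all 4 B cell markers measured were below the limit. The arrays correlated at 0.972 to 0.987 across genes except PLZF_ON replicate 3, whose correlations with the others were 0.941 to 0.944 and whose spread was narrower (SD 1.61 against 1.85 to 1.91).

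Between the genotypes, none of the 89 genes passed the test over the 4 analysed arrays (limma, adjusted over all 23521 rows at 0.05), in a comparison that called 0.17% of all rows, 40 rows. Among the rows chosen to stand for the 89 genes the smallest adjusted p was 0.506, for Ndufaf5. No other chosen row had an unadjusted p under 0.05, a mark that 9.41% of all rows reached. The second, dimmer row of Ndufa11 had a difference of -0.36 (SE 0.13, limma adjusted p = 0.469), against 0.12 in its chosen row. The log2 differences, PLZF_ON minus WT, ran from -0.47 to 0.40 with a median of 0.03. They were above 0 for 52 genes and below 0 for 37. Over all genes the median was -0.004. All 89 differences were smaller than 1.5-fold, as were 95.4% of those of all genes. The 95% limma interval lay within 1.5-fold either way for 63 of the 89 genes (70.8%, against 64.1% of all genes) and within 2-fold for 87 (97.8%, against 93.2%), the exceptions being Cox8b and the pseudogene Atp5c1-ps. With 2 arrays per genotype the median SE of a difference was 0.14. In these bulk samples a difference in the number of cells of a type cannot be told apart from a difference in RNA per cell.

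The 2 genotypes did not overlap over the 4 arrays for 21 genes with PLZF_ON higher, or 23.6%, and for 11 with PLZF_ON lower, or 12.4%. Among all genes these shares were 18.8% and 19.3%. Complex V gave 7 of the 21, or 38.9% of its 18 genes, and complex I accessory subunits another 7, or 25.9% of 27. Of the 11, 3 were complex I core subunits.

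**Figure D2:**
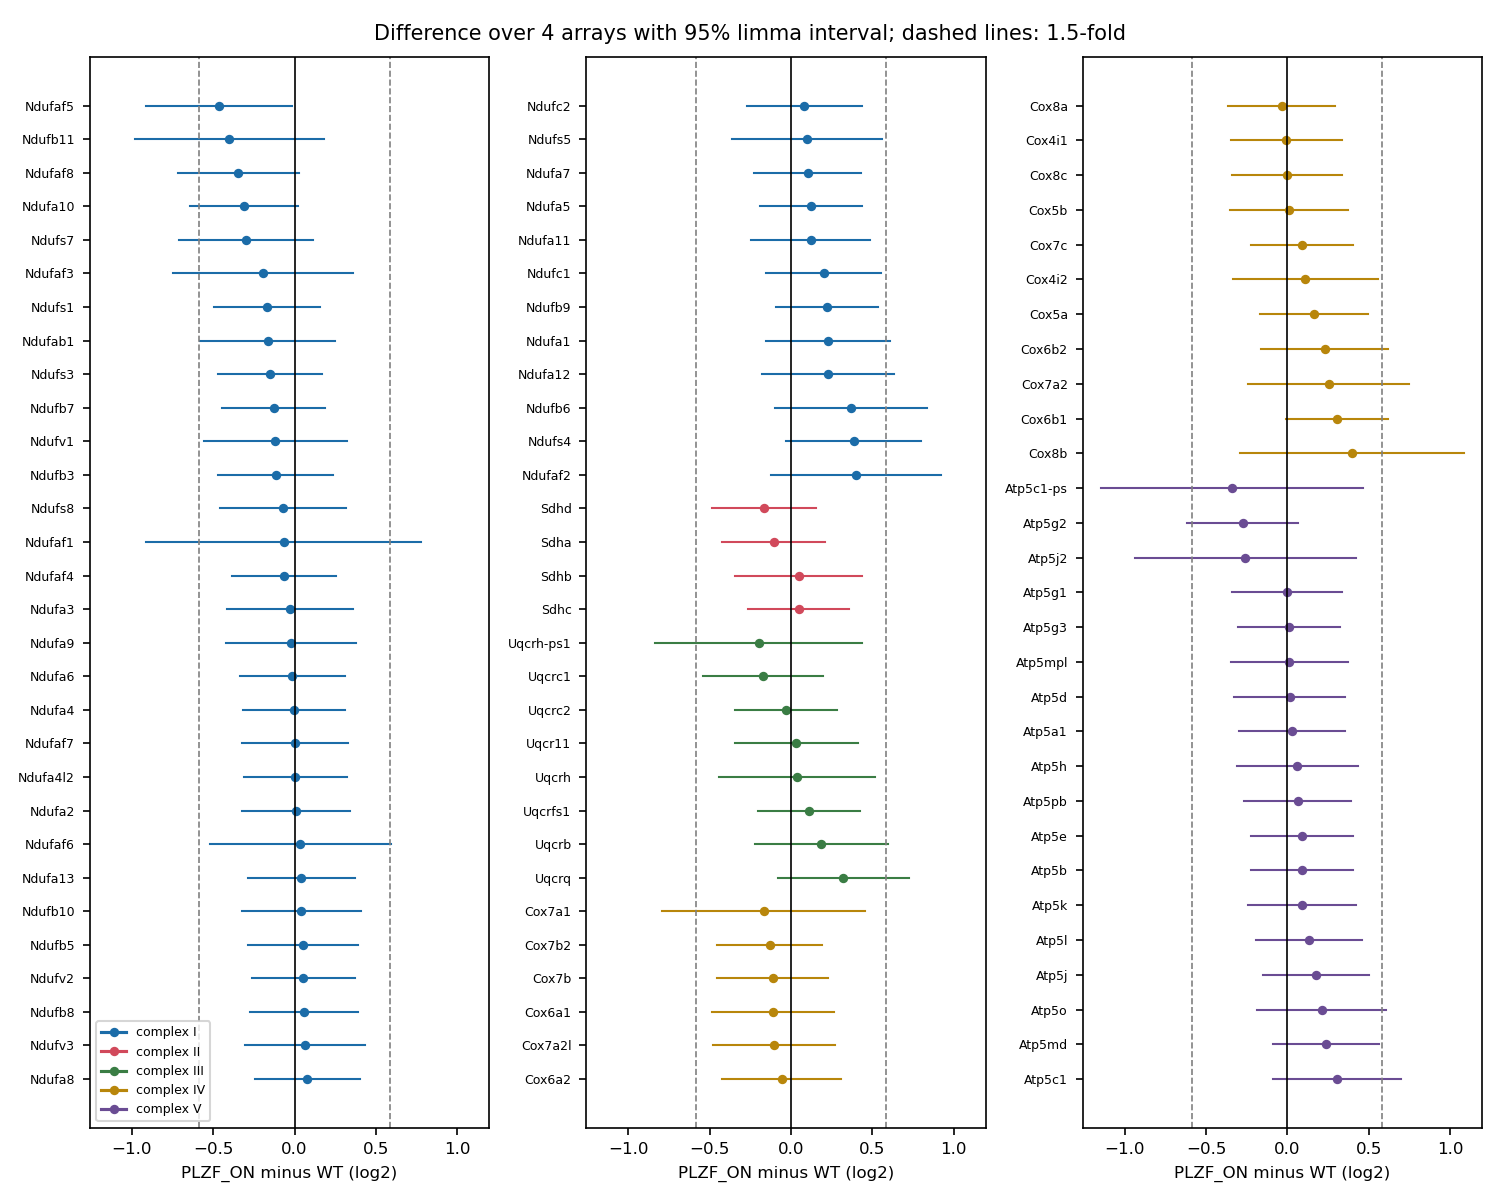
Log2 difference of each of the 89 genes, PLZF_ON minus WT over replicates 1 and 2 (points), with the 95% limma interval (lines) and dashed lines at 1.5-fold, coloured by complex and sorted within it. All points lie between the dashed lines, and the interval of Ndufaf5 alone leaves out 0.

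Complex I takes electrons from NADH, and its nuclear-encoded core subunits carry the flavin and the iron-sulphur clusters along which they travel. None of its 42 genes passed the test. The median difference was 0.01 (-0.003 with each array centred on its median), with 23 genes higher and 19 lower in PLZF_ON. Of the 6 core subunits measured, 5 were lower in PLZF_ON by value, with a median of -0.13 and a smallest limma adjusted p of 0.698. That median rested on WT replicate 2: without it the median was -0.01, with 3 genes higher and 3 lower, while without WT replicate 1 it was -0.19.

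Ndufs1, the largest core subunit, had log2 levels of 7.16, 7.13 and 6.81 in WT replicates 1 to 3 and of 7.05, 6.91 and 6.36 in PLZF_ON replicates 1 to 3. Both analysed PLZF_ON arrays were below both WT arrays, and replicate 3 was the lowest of each genotype. The difference over the 4 arrays was -0.17 (SE 0.13, 95% interval -0.50 to 0.16, limma adjusted p = 0.807). Ndufs7, which holds the last iron-sulphur cluster before ubiquinone, measured 7.27, 7.04 and 7.15 in WT and 7.01, 6.70 and 6.92 in PLZF_ON. Its groups did not overlap over 4 or over 6 arrays, with a difference of -0.30 over the 4 (SE 0.17, 95% interval -0.71 to 0.11, limma adjusted p = 0.698). Ndufs3, another core subunit, was 6.40, 6.51 and 6.47 in WT and 6.31, 6.30 and 6.04 in PLZF_ON, again without overlap (-0.15, SE 0.13, limma adjusted p = 0.837). The core gene above 0, Ndufv2, an iron-sulphur subunit of the NADH-oxidising module, lay 0.05 higher in PLZF_ON (SE 0.13, limma adjusted p = 0.956).

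Accessory subunits surround the core and stabilise it. Of the 27 genes grouped here by name, Ndufa4 among them, 18 were higher and 9 lower in PLZF_ON, with a median of 0.06, and none passed. Without PLZF_ON replicate 1 the median was -0.02, with 12 higher and 15 lower. Ndufs4, an accessory subunit whose loss causes a Leigh-like disease in mice, was 8.76, 8.79 and 9.17 in WT and 9.36, 8.96 and 8.08 in PLZF_ON. It was thus higher in PLZF_ON in replicates 1 and 2 (0.39, SE 0.17, 95% interval -0.03 to 0.80, limma adjusted p = 0.582) and lower in replicate 3. Ndufa10, a matrix-side subunit, was 8.97, 9.03 and 8.998 in WT and 8.77, 8.61 and 7.86 in PLZF_ON. All WT arrays were above all PLZF_ON arrays, with a difference of -0.31 over 4 arrays (SE 0.14, 95% interval -0.64 to 0.02, limma adjusted p = 0.571). Ndufb11, a membrane-arm subunit, was 7.08, 7.53 and 6.90 in WT and 7.17, 6.64 and 7.16 in PLZF_ON, so its difference of -0.40 (SE 0.24, limma adjusted p = 0.721) came with overlapping groups.

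Assembly factors Ndufaf1 to Ndufaf8 help build complex I and are not part of the finished enzyme. Of these 8 genes, 3 were higher and 5 lower in PLZF_ON (median -0.07), none passed, and without PLZF_ON replicate 2 the median was 0.05 with 5 higher. Ndufaf5, which hydroxylates Ndufs7 during assembly, was 6.43, 6.65 and 6.32 in WT and 6.28, 5.87 and 5.87 in PLZF_ON. All PLZF_ON arrays lay below all WT arrays, but the gap between PLZF_ON replicate 1 and WT replicate 3 was narrow. The difference of -0.47 was the lowest of the 89 genes (SE 0.18, 95% interval -0.92 to -0.02, unadjusted p = 0.0435, limma adjusted p = 0.506). Ndufaf8, a partner that stabilises Ndufaf5, was 6.80, 6.50 and 6.60 in WT and 6.32, 6.29 and 6.14 in PLZF_ON. It too did not overlap between genotypes on any of the 6 arrays (-0.35 over 4 arrays, SE 0.15, limma adjusted p = 0.571). Ndufaf2, a paralogue of the subunit Ndufa12 that acts late in assembly, had the highest difference of the 89 (0.40, SE 0.21, limma adjusted p = 0.672), from 6.62, 7.12 and 6.98 in WT and 7.10, 7.44 and 5.61 in PLZF_ON, where WT replicate 2 overlapped the PLZF_ON arrays.

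**Figure D3:**
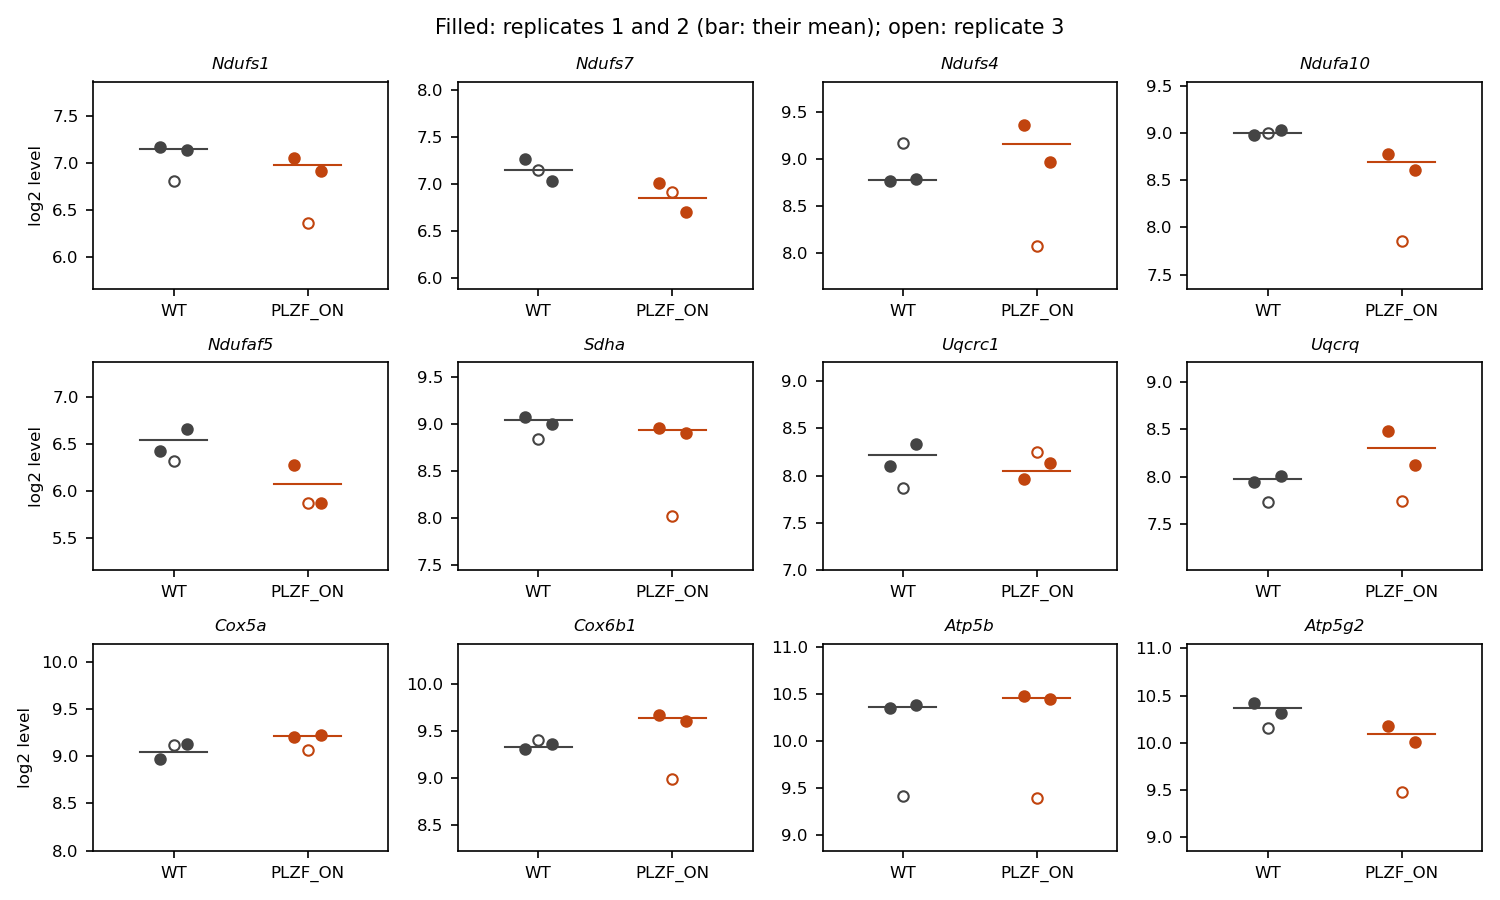
Log2 levels of 12 genes on each array, WT in grey and PLZF_ON in orange, with filled points for replicates 1 and 2, a bar at their mean, and open points for replicate 3. Ndufs7, Ndufa10 and Ndufaf5 show every PLZF_ON point below every WT point, while for Ndufs4 and Cox6b1 the open PLZF_ON point lies below all others.

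Complex II, succinate dehydrogenase, belongs to both the respiratory chain and the citric acid cycle and is encoded by the nucleus alone. Its 4 genes split evenly, with a median of -0.03 and a smallest limma adjusted p of 0.807. Sdha, the flavoprotein that oxidises succinate, was 9.07, 8.999 and 8.84 in WT and 8.96, 8.90 and 8.03 in PLZF_ON. The analysed arrays did not overlap, though narrowly, and replicate 3 of PLZF_ON lay well under the rest (difference over 4 arrays -0.11, SE 0.13, limma adjusted p = 0.900). Sdhd, a membrane anchor, was 7.39, 7.47 and 6.88 in WT and 7.30, 7.23 and 6.62 in PLZF_ON, with both replicate 3 arrays low (-0.17, SE 0.13, limma adjusted p = 0.807). Sdhc, the other anchor, had the highest value of the 4 genes, a difference of 0.05 (SE 0.13, limma adjusted p = 0.959).

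Complex III moves electrons from ubiquinol to cytochrome c. Among its 8 genes 5 were higher and 3 lower, with a median of 0.04 and a smallest limma adjusted p of 0.656; the median was 0.16 without WT replicate 1 and -0.05 without WT replicate 2. Uqcrc1, a core subunit, was 8.11, 8.33 and 7.87 in WT and 7.96, 8.13 and 8.25 in PLZF_ON. Its groups overlapped and replicate 3 reversed the order of the genotypes (-0.17 over 4 arrays, SE 0.15, limma adjusted p = 0.838; 0.01 over 6). Uqcrq, a small membrane subunit of the complex, was 7.95, 8.01 and 7.74 in WT and 8.48, 8.12 and 7.74 in PLZF_ON. PLZF_ON was higher on the 4 analysed arrays by 0.32 (SE 0.17, 95% interval -0.08 to 0.73, limma adjusted p = 0.656), and the replicate 3 arrays were equal to 2 decimals.

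Complex IV, cytochrome c oxidase, reduces oxygen. Its 17 genes had a median difference of -0.001 (0.01 after renewed quantile normalization), with 8 higher and 9 lower, and a smallest limma adjusted p of 0.549. Cox6b1, a subunit facing the intermembrane space, gave that p: it was 9.31, 9.36 and 9.41 in WT and 9.67, 9.61 and 8.99 in PLZF_ON. The 2 analysed PLZF_ON arrays were the highest of all 6 and PLZF_ON replicate 3 was the lowest (0.31 over 4 arrays, SE 0.13, 95% interval -0.01 to 0.62). Cox5a, a matrix-side subunit, was 8.97, 9.13 and 9.12 in WT and 9.20, 9.22 and 9.06 in PLZF_ON (0.16 over 4 arrays, SE 0.14, limma adjusted p = 0.817). Its lowest and highest levels over the 6 arrays were both on replicates 1 and 2, and the replicate 3 arrays lay between them. Cox7b, a small transmembrane subunit, had the lowest difference among the ubiquitous subunits, -0.11 (SE 0.14, limma adjusted p = 0.900).

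Several subunits exist in a ubiquitous form and a form used in muscle, lung or testis. The 7 ubiquitous forms measured (Cox4i1, Cox6a1, Cox6b1, Cox7a2, Cox7b, Cox8a and Ndufa4) were all above the background limit on every array. Of the 8 tissue-specific forms, Cox7a1, Cox7b2, Cox8b, Cox8c and Ndufa4l2 had means below the limit, from 2.43 for Cox7b2 to 4.63 for Cox7a1. Cox4i2 (5.27) and Cox6b2 (5.39) were just above it, and Cox6a2 was at 6.02. None of the 8 passed the test. Cox6b2, a testis form, was 5.11, 5.18 and 5.32 in WT and 5.21, 5.54 and 5.97 in PLZF_ON, with a difference of 0.23 over 4 arrays (SE 0.16, limma adjusted p = 0.769). Of the 5 muscle markers Ckm, Myh4 and Myh6 were below the limit on every array. Nppa was above it on every array (5.50 to 6.03), and Acta1 was above it on WT replicate 3 (5.28) and PLZF_ON replicate 3 (5.76).

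ATP synthase makes ATP at its F1 head as protons turn the ring of c subunits in the membrane. Its 18 genes had the highest median of the complexes, 0.06, with 14 higher and 4 lower in PLZF_ON. None passed the test, and the smallest limma adjusted p was 0.649. The 5 F1 genes were all higher by value, with a median of 0.09, although 1 of them was lower without WT replicate 1 and 2 were lower without PLZF_ON replicate 2. Atp5b, the catalytic beta subunit, was 10.35, 10.38 and 9.42 in WT and 10.47, 10.44 and 9.39 in PLZF_ON. Both replicate 3 arrays were about 1 log2 unit below the others of their genotype, and the genotypes differed little within each set (0.09 over 4 arrays, SE 0.13, 95% interval -0.22 to 0.40, limma adjusted p = 0.915). Atp5c1, the gamma subunit of the central stalk, was 6.88, 7.13 and 6.88 in WT and 7.19, 7.43 and 6.58 in PLZF_ON, with no overlap between the analysed groups (0.31, SE 0.16, 95% interval -0.09 to 0.70, limma adjusted p = 0.663). Atp5g2, a gene for the c subunit, was lower in PLZF_ON, with 10.42, 10.32 and 10.15 in WT and 10.18, 10.01 and 9.48 in PLZF_ON. Its analysed arrays did not overlap (-0.28, SE 0.14, 95% interval -0.61 to 0.06, limma adjusted p = 0.649), and its second row had a difference of -0.18. Of the 9 genes with another row, the 4-array difference had the same sign in both rows for 6. The other c-subunit genes, Atp5g1 and Atp5g3, differed by -0.001 and 0.01.

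With replicate 3 added, no member was called. Over all 6 arrays none of the 89 genes passed (limma adjusted p of at least 0.791), in a comparison that called 0.0935% of all rows. The unadjusted p was under 0.05 for 3 genes, Ndufaf5, Ndufaf8 and Ndufa10, a mark that 5.77% of all rows reached. The median difference was -0.10, with 24 genes higher and 65 lower, while it was 0.03 over all genes and -0.15 over the 4458 genes at levels within the middle range of the chain's own genes (their 25th to 75th percentile). The genotypes did not overlap over 6 arrays for 1 gene with PLZF_ON higher, Atp5l (1.12%, against 5.47% of all genes). They did not overlap for 5 with PLZF_ON lower, Ndufaf5, Ndufaf8, Ndufa10, Ndufs7 and Ndufs3 (5.62%, against 6.27% of all genes). Over the 4458 genes of like level these shares were 3.36% higher and 14.0% lower. By complex the medians were -0.12, -0.24, 0.002, -0.05 and -0.0003 for complexes I to V. Without PLZF_ON replicate 3 they were 0.03, 0.03, 0.08, 0.03 and 0.08, and a renewed quantile normalization of the 6 arrays moved the median of the 89 genes to -0.004. Complexes III, IV and V turned to 0.14, 0.03 and 0.07 under that normalization, and complexes III and V to -0.04 and -0.05 with centred arrays.

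**Figure D4:**
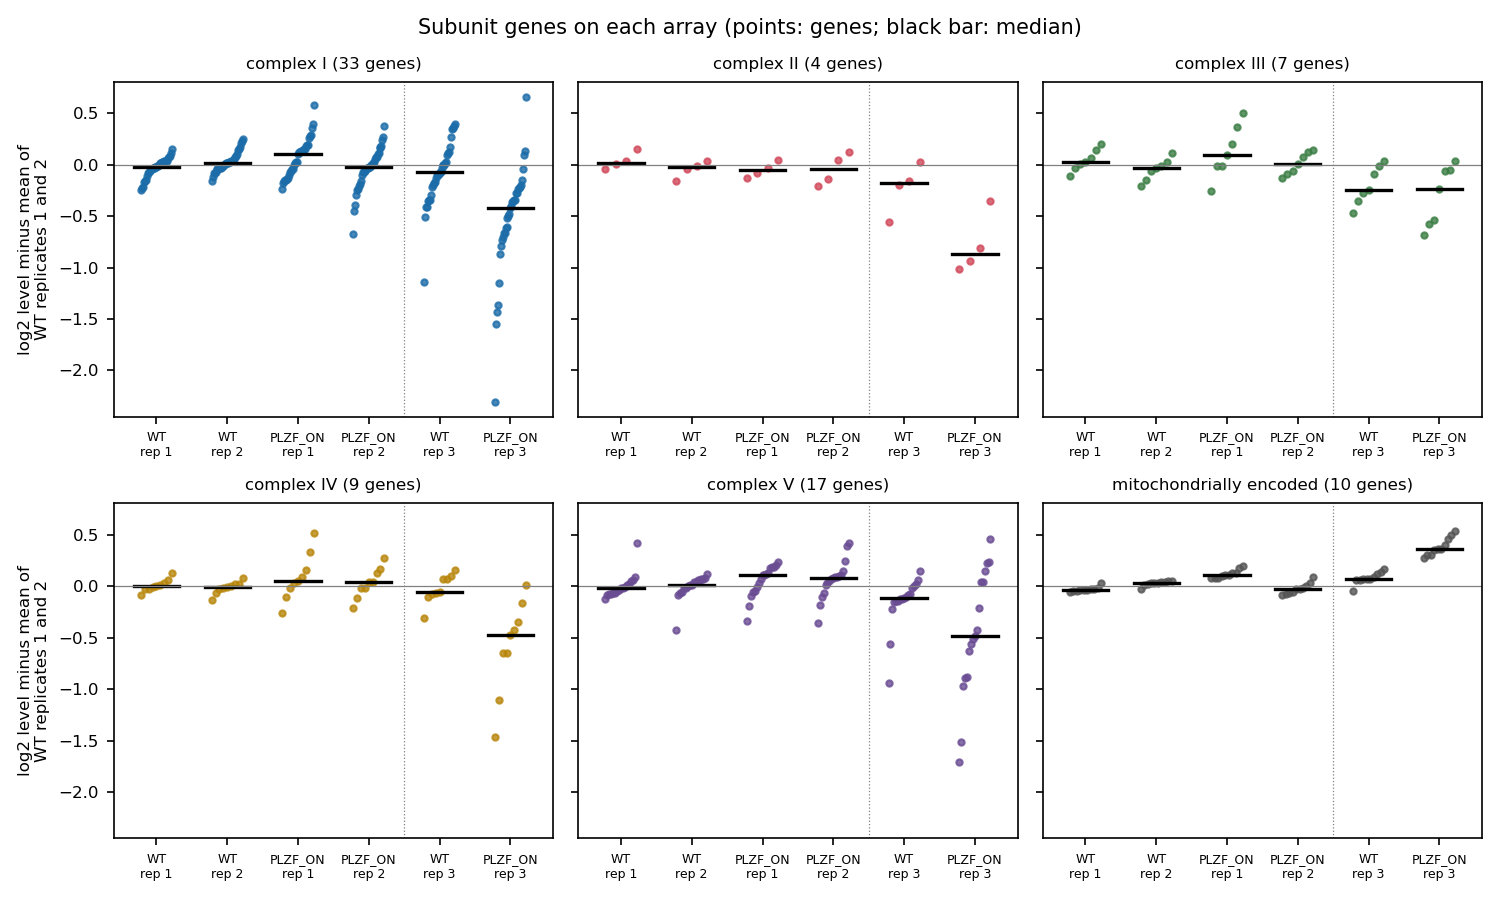
Log2 level of each ubiquitous subunit gene on each array minus its mean over WT replicates 1 and 2 (points), with the median of each complex as a black bar, and the mitochondrially encoded subunits in the last panel. The 4 analysed arrays lie near 0 in every panel. PLZF_ON replicate 3 lies low for complexes I, II, IV and V and for most genes of complex III, and the mitochondrially encoded genes lie above 0 there.

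Replicate 3 was therefore set apart, as the difference between its 2 arrays, which has no replicate check and no test. PLZF_ON replicate 3 was below WT replicate 3 for 70 of the 89 genes, with a median of -0.37. By complex the medians were -0.44, -0.54, -0.09, -0.23 and -0.32 for complexes I to V, and -0.63 for the complex I assembly factors. The difference reached 1.5-fold lower for 27 of the 89 genes, or 30.3%, and 1.5-fold higher for 3, or 3.37%, against 15.6% and 13.1% of all genes. Those shares moved with the level of the genes compared: they were 30.5% and 8.13% over genes at or above the background limit, and 41.3% and 4.80% over genes of like level. PLZF_ON replicate 3 was the lowest of the 6 arrays for 57 of the 89 genes (64.0%). That share was 27.0% over all genes but 67.2% over genes of like level, whose median difference was -0.46. Within bins of level 1 log2 unit wide, 45 of the 89 genes lay below the median of all genes in their bin.

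The lowest values were those of Atp5d, the delta subunit of F1, at 9.50 in WT replicate 3 and 7.80 in PLZF_ON replicate 3 (a difference of -1.70), and of Atp5h, the d subunit of the peripheral stalk, at 9.69 and 8.25 (-1.44). Cox7a2, the ubiquitous form of a small complex IV subunit, was at 9.60 and 8.19. The assembly factor Ndufaf2 was at 6.98 and 5.61 (-1.37), and Ndufc2, a membrane-arm subunit of complex I, at 9.36 and 8.03. On the 4 analysed arrays these genes differed by 0.01, 0.06, 0.25, 0.40 and 0.08. Both ATP synthase genes have another, dimmer row on the array, with replicate 3 differences of -0.80 for Atp5d and 0.53 for Atp5h, the latter at a mean of 5.02, below the limit. Above 0 in replicate 3 were Atp5l and Atp5k, the g and e subunits at the ATP synthase dimer interface. Atp5l was 11.63, 11.76 and 11.71 in WT and 11.87, 11.79 and 12.15 in PLZF_ON, and Atp5k was 10.71, 10.54 and 10.47 in WT and 10.70, 10.73 and 10.85 in PLZF_ON. Uqcrc1 (0.38), Ndufs5 (0.49) and Atp5j2 (0.60) were also higher in PLZF_ON replicate 3 than in WT replicate 3. Some genes were low on both replicate 3 arrays, as Atp5b above and Ndufa9, a complex I accessory subunit, at 8.24, 8.19 and 7.08 in WT and 8.38, 8.01 and 5.91 in PLZF_ON. In all, 46 of the 89 genes were lower on WT replicate 3 than on both other WT arrays.

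**Figure D5:**
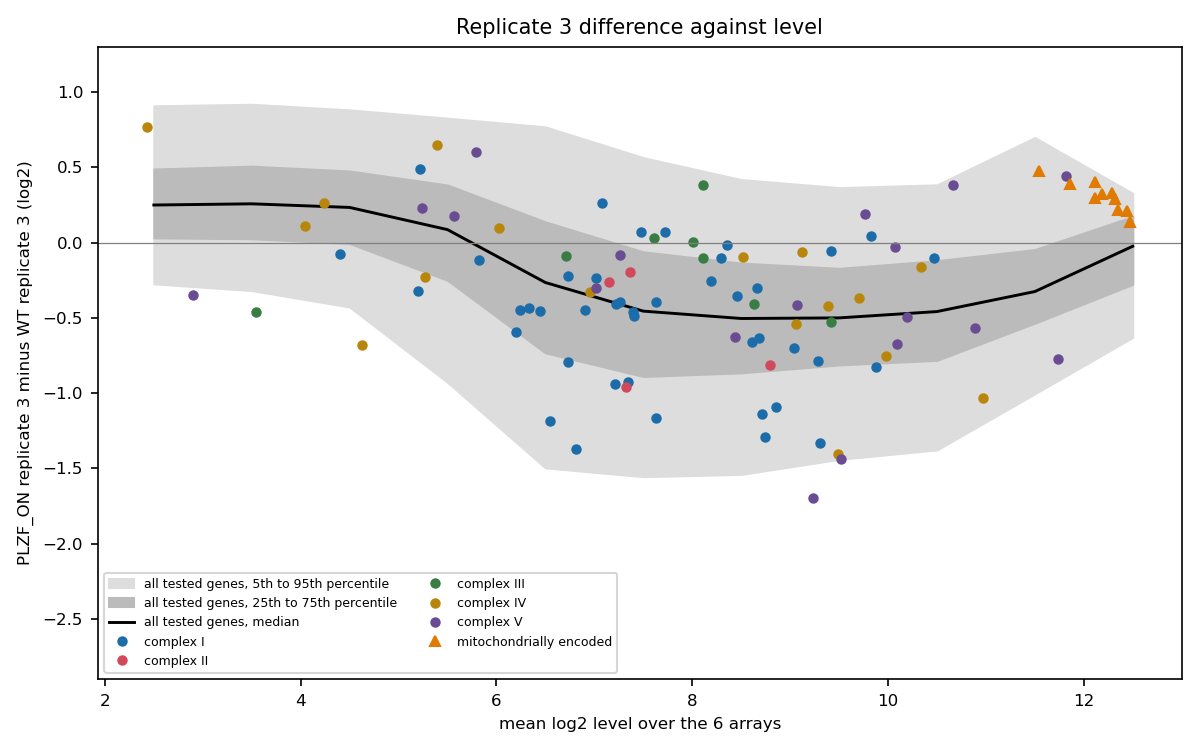
Log2 difference of the replicate 3 arrays, PLZF_ON minus WT, against the mean log2 level over the 6 arrays, for the 89 genes (circles, by complex) and the mitochondrially encoded subunits (triangles), over the median and percentile bands of all measured genes in bins 1 log2 unit wide. The circles follow the dip of all genes at levels between 6 and 11, with Atp5d lowest at -1.70, and the 10 triangles lie above 0.

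The size of this pattern moved with the scaling. Centring each array on its own median took the median of all genes from 0.07 to -0.05 and that of the 89 genes to -0.49. After a renewed quantile normalization the 89 genes had a median of -0.08, with 39 genes higher and 50 lower. Under that normalization complex III turned to 0.24, while the medians of complexes I, II, IV and V were -0.20, -0.20, -0.06 and -0.04 and that of the assembly factors was -0.43. PLZF_ON replicate 3 also stood apart in markers of other cells. Of the 3 neutrophil markers S100a8 and S100a9 were at 7.29 and 7.20 there and at most 4.29 on the other arrays, with Elane below the limit on all. The summed unlogged level of the 3 was 321 on that array and 37.2 to 43.9 on the others. Double-positive thymocyte markers (3 of 4 measured: Dntt, Rag2 and Cd8b1) summed to 386 against 62.0 to 88.0. T cell markers (5 of 7 measured) summed to 5386 against 7890 to 9066, with a median replicate 3 difference of -0.28. Over all genes that median was -0.50, -0.46 and -0.33 at levels of 9 to 10, 10 to 11 and 11 to 12. Sums for myeloid (5 of 5), B cell (4 of 5), muscle (5 of 5) and hepatocyte markers (2 of 2) were 223, 68.5, 169 and 88.0 there, against 188 to 214, 56.8 to 64.9, 128 to 147 and 51.2 to 59.5. The median replicate 3 difference was 0.23 for the B cell, -0.04 for the muscle and 0.90 for the hepatocyte markers. Dim genes were in general higher in PLZF_ON replicate 3. Their medians were 0.25, 0.26 and 0.23 in the bins from 2 to 5, and 0.09 from 5 to 6. The myeloid sum held opposite moves. Lyz2 was 6.58 on that array and at most 4.48 on the others, and Cd68 was 5.32 there and at least 6.45 on the others. Csf1r, Adgre1 and Itgam moved less. No erythroid marker was measured. The part of these cells in the respiratory chain values was not tested.

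The mitochondrially encoded subunits, listed apart since their names fall outside the selection, did not follow the nuclear ones on that array. Of 13 such genes 10 were measured (ND1, ND2, ND3, ND4, ND4L, ND5, ND6, CYTB, COX1 and COX3), between 11.3 and 12.7 on every array. Over the 4 analysed arrays 9 were higher and 1 lower, with a median of 0.05, and none passed the test (smallest limma adjusted p 0.891). All 10 were at their highest on PLZF_ON replicate 3, with a median difference from WT replicate 3 of 0.31 and a range of 0.14 to 0.48. ND2, a proton-pumping subunit of complex I, was 11.37, 11.47 and 11.48 in WT and 11.60, 11.35 and 11.96 in PLZF_ON. COX1, the catalytic subunit of complex IV, was 12.21, 12.26 and 12.31 in WT and 12.35, 12.18 and 12.60 in PLZF_ON. The median was 0.19 with centred arrays and 0.21 after renewed quantile normalization, above 0 in both, with 9 of 10 genes higher in the latter and the other at 0. All genes in the brightest bin, from 12 to 13, had a median of -0.02, in a bin of 27 genes that includes most of these.

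Genes around the chain were taken from lists chosen for their function, and none of their members passed the test over 4 arrays. Of 6 genes for electron carriers and the ATP synthase inhibitor, 3 were higher and 3 lower. Cyc1, the cytochrome subunit of complex III that the names above leave out, was 7.87, 7.95 and 8.28 in WT and 7.91, 7.86 and 7.29 in PLZF_ON. Cycs, which encodes cytochrome c, was 9.39, 9.55 and 9.31 in WT and 9.97, 9.76 and 8.72 in PLZF_ON, with no overlap between the analysed groups and PLZF_ON lower in replicate 3 (0.40 over 4 arrays, SE 0.15, limma adjusted p = 0.478). Etfa, a subunit of the electron transfer flavoprotein, was 7.91, 8.15 and 7.81 in WT and 8.42, 8.07 and 6.71 in PLZF_ON, and its analysed groups overlapped (0.22, SE 0.18, limma adjusted p = 0.814). Among 28 measured assembly factors of complexes II to IV, 11 were higher and 17 lower. The copper chaperone Sco1 had the highest value, from 5.17, 5.67 and 5.18 in WT to 5.97, 5.96 and 5.48 in PLZF_ON (0.54 over 4 arrays, SE 0.19, limma adjusted p = 0.442), and Surf1 was lower by value (-0.26, limma adjusted p = 0.738). Of 10 other complex I and ATP synthase assembly factors 3 were higher and 7 lower, with Foxred1 at -0.24 and Acad9 at 0.20.

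Among 16 nuclear regulators of mitochondrial genes 5 were higher and 11 lower (median -0.04). Nrf1 was 7.62, 7.48 and 7.77 in WT and 7.50, 7.52 and 6.87 in PLZF_ON, and Gabpa, the DNA-binding subunit of GABP, was 8.75, 8.53 and 8.61 in WT and 8.52, 8.10 and 7.89 in PLZF_ON. The analysed groups overlapped for Nrf1 and not for Gabpa (limma adjusted p = 0.692). GABP is a factor of the ETS family, and its binding was not measured here. Polg, the mitochondrial DNA polymerase, had a difference of 0.48 (SE 0.19, limma adjusted p = 0.506) and the coactivator Ppargc1b one of -0.35 (SE 0.17, limma adjusted p = 0.612), while its relative Ppargc1a was below the limit on all arrays.

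The citric acid cycle and pyruvate dehydrogenase list had 9 of 15 genes higher and 6 lower, and its smallest p-values belonged to the lower genes Pdha1 (-0.28, limma adjusted p = 0.621) and Idh3g (-0.27, limma adjusted p = 0.648). Coenzyme Q synthesis genes split 5 to 5, with Coq7, a hydroxylase of that pathway, at 0.57 (SE 0.18, limma adjusted p = 0.389) and Coq6 at -0.17. Mitochondrial ribosomal proteins split 36 to 35 with a median of 0.01. Mrpl17, a protein of the large subunit, was 7.75, 7.87 and 7.17 in WT and 6.97, 7.003 and 5.51 in PLZF_ON. It did not overlap between genotypes on any array, and its difference of -0.82 (SE 0.13, limma adjusted p = 0.108) was larger than that of any of the 89 chain genes. Mrpl54 was higher by value (0.53, limma adjusted p = 0.302). Cytosolic ribosomal proteins were higher for 35 and lower for 51 of 86, with Rpl7l1 at -0.88 (limma adjusted p = 0.102) and Rpl26 at -0.56 (limma adjusted p = 0.251). Cell cycle genes, set beside the chain because dividing T cells enlarge their mitochondria, were higher for all 19 measured with a median of 0.59, although none passed (Aurka 0.68, limma adjusted p = 0.251; Tyms 1.06, limma adjusted p = 0.445). The median level of these genes was 6.65 and 7.82 on the analysed WT arrays and 7.49 and 8.23 on the analysed PLZF_ON arrays. The higher WT array exceeded the lower PLZF_ON array. Over 6 arrays 14 cell cycle genes were higher and 5 lower, with a median of 0.43. In replicate 3 alone 7 were higher and 12 lower in PLZF_ON, with a median of -0.10. All genes at levels of 6 to 7 and 7 to 8 had replicate 3 medians of -0.27 and -0.46.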

How the data were processed

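Expression was measured on Affymetrix whole-transcript arrays in 3 WT and 3 PLZF_ON samples. The values are the authors' deposited log2 expression values per array row, made with RMA (version not given) per the submitters' processing notes. RMA corrects background, scales arrays to each other and compresses differences of dim genes. Genome build was not given in the sources used here. Of 41345 rows, 23521 had exactly 1 symbol in GEO's platform annotation and were tested as deposited, with no filter; 1814 with several symbols and 16010 unnamed rows were left out. Where a gene had several rows, the row of highest mean over the 6 arrays stood for it. All 89 genes matched the NCBI gene table by Entrez number.

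Groups came from the genotype labels. The limma package 3.58.1 (R 4.3.3; functions lmFit and eBayes, two-sided, with genotype as the term) was run over replicates 1 and 2, and over all 6 arrays, followed by Benjamini-Hochberg adjustment over all tested rows at 0.05; the code was checked on simulated data. SE and intervals are limma's moderated ones. Genes named with values were the 5 defining genes, the 2 smallest p-values and the largest difference each way per complex or role (above the background limit), the tissue-specific forms, and the 2 smallest p-values of each list of genes around the chain; marker lists are given as sums. Ndufs3, Atp5g1, Atp5g3, Nrf1, Gabpa, Ppargc1a, Cyc1, the mitochondrially encoded genes and those named for replicate 3 were added after their values were seen. The genes and lists were chosen with earlier results of these data known. The number of arrays limits precision. Figures used matplotlib 3.10.9.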

Additional observations from a re-analysis of the deposited data

How the results depend on the processing

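None of the 89 genes passed the limma test under any alternative tried, over 4 arrays (13 settings) or 6 (16 settings). The smallest adjusted p ranged from 0.255 (without PLZF_ON replicate 1) to 0.723 (all deposited rows) over 4 arrays, and from 0.355 (array weights) to 0.9996 (without WT replicate 2) over 6. Calls among all rows were less stable: 40 over 4 arrays became 0 with all deposited rows or without PLZF_ON replicate 2, 106 without WT replicate 2 and 135 at an adjusted p of 0.1. Over 6 arrays 22 became 259 with array weights, 46 at 0.1, 5 with centred arrays, 0 with all deposited rows, and 0 to 107 when an array was left out. The replicate block called 0 of the 89 genes in both sets, with 101 rows over 4 arrays and 30 over 6. Deviations from the group means correlated at 0.13 between samples of the same number over 4 arrays. Over 6 arrays they correlated at 0.092, 0.253 and 0.239, the highest value for each WT array. PLZF_ON replicate 1, however, correlated better with WT replicate 2 (0.124). Whether samples of the same number share more than that number was not tested.

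Medians per complex stayed within the spread between arrays except when an array was left out. Complex II then ranged from -0.12 to -0.006 over 4 arrays and from -0.38 to 0.0285 over 6, and complex III from -0.050 to 0.16 over 4. The complex I core ranged from -0.19 to -0.01. For replicate 3, centring (-0.49) and renewed quantile normalization (-0.08), both chosen after the data were seen, moved the median of -0.37. The cause was not tested.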
